A study of Mus musculus with 38 samples.

Results

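The genes described here are the 10 members of a lipogenesis list built around SREBP1, the transcription factor that switches on fatty acid synthesis. They are Srebf1, which encodes SREBP1, and Fasn, Scd1, Scd2, Acaca, Acly, Elovl6, Me1, Pnpla3 and Fads2. The symbols were matched to Ensembl identifiers, and all 10 were found among the 55416 genes of each of 3 count tables. All 10 also passed the filter on low counts in each table.

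The study sequenced messenger RNA from the intestinal tract of mice modelling colorectal cancer, and asked how a black rice diet changes it relative to a control diet. The Apc table held 18 libraries, 3 each of black rice F, black rice M, control diet F, control diet M, WT F and WT M, and the titles of the WT libraries carry the word Apc as well. Its WT libraries were labelled as receiving no treatment, and its columns were named Colon. The AOM table held 12 libraries, 3 each of black rice F, black rice M, control diet F and control diet M. Another table, called the third table below, held 4 black rice and 4 control diet libraries with no letter F or M, and neither Apc nor AOM in their titles. Its column headers carry the letters FMT, which the labels do not explain, so it may differ from the others in more than its codes. F and M are letters of the titles and are called the code here. The labels spell out neither Apc nor AOM, and give no allele, strain, agent, dose, age or collection time, so what limits each group as a model is not given in the sources used here. They also do not say whether replicates came from separate animals, so p-values measure only the spread between these samples. One library, AOM black rice F replicate 3, holds liver transcripts (its 10 hepatocyte markers sum to 421000 CPM (counts-per-million), against 43.8 to 181 in the 37 others) and was left out, which leaves 11 AOM libraries. Libraries held 44796449 to 61888458 counted reads in the Apc table, 37908841 to 55089368 in the 11 AOM libraries and 66610853 to 91051239 in the third. The library left out held 5373366. The 12 epithelial markers checked, among them Epcam, Vil1 and Cdx2, were above 0 in every library, and their sum ran from 8680 to 40700 CPM.

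Animal cells make fatty acids from acetyl units carried out of the mitochondrion as citrate. ATP citrate lyase (Acly) splits the citrate and acetyl-CoA carboxylase 1 (Acaca) makes malonyl-CoA. Fatty acid synthase (Fasn) builds palmitate with reducing power that malic enzyme (Me1) helps to supply. Elovl6, Scd1 and Scd2 lengthen and desaturate the product, and Fads2 desaturates polyunsaturated fatty acids. SREBP1 is held in the endoplasmic reticulum as a precursor, is released by proteolysis when SCAP escorts it to the Golgi, and then activates these genes together with NF-Y and Sp1. Its relative SREBP2 drives cholesterol synthesis through the same machinery, and insulin and the oxysterol receptor LXR raise transcription of Srebf1 in liver.

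Promoter sequences show what the leading genes carry next to their start sites. RefSeq windows (GRCm38.p6, 250 bases before each start) matched 8 of the 10 genes, all but Scd1 and Scd2. The windows were searched on both strands for the CCAAT box bound by NF-Y (CCAAT), the GC box bound by Sp1 (GGGCGG), the E-box (CACGTG) and a sterol regulatory element (TCACNCCAC). These are present in 33.8%, 32.7%, 6.02% and 1.05% of all 32851 windows in that order. Printed 5′ to 3′ on the gene's own strand, with motif letters in capitals, are 2 of the 3 Srebf1 windows, the Fasn window, and that of Acly, whose counts had r = 0.14 with Fasn and 0.38 with Srebf1 over the 18 Apc libraries. By an exact match of bases, Srebf1 start 1 is also a transcript start in the GENCODE M21 annotation, while starts 2 and 3 match none there. Me1 start 1 and the starts of Pnpla3 and Fads2 match none either. A start shifted by 1 base would not match, so this does not show which starts are used.
Srebf1, start 1, chr11:60222582-60222831, minus strand: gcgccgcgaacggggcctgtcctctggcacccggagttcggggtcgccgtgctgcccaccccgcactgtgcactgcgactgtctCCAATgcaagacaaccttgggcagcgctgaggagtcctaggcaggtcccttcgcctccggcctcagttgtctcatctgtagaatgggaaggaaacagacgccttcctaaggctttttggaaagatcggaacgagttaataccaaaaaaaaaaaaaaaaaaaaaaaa
Srebf1, start 3, chr11:60210472-60210721, minus strand: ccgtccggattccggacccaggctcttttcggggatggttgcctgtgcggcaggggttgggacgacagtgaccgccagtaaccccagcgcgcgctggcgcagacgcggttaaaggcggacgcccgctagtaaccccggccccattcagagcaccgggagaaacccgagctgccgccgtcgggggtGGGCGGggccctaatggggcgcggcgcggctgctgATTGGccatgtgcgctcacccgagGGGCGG
Fasn, chr11:120824548-120824797, minus strand: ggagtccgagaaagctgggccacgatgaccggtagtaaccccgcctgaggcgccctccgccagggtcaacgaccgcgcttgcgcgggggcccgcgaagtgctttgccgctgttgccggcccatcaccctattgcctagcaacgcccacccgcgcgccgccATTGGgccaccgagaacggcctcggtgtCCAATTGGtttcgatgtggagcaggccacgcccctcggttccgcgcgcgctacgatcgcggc
Acly, chr11:100528001-100528250, minus strand: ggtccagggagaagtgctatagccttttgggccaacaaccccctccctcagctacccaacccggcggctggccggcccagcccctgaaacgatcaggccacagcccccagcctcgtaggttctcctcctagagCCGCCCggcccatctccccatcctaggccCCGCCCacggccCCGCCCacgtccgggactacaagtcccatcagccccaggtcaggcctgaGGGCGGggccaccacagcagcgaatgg

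The Fasn window holds 3 CCAAT boxes, 90, 62 and 59 bases before the start, of which the nearest 2 overlap. The windows of Srebf1 differ: start 1 has 1 CCAAT box 166 bases before it and no GC box, start 2 has 2 GC boxes and no CCAAT box, and start 3 has 1 CCAAT box 30 bases before it with GC boxes 65 and 6 bases before it. The Acly window holds 4 GC boxes and no CCAAT box. The window of Acaca holds neither, but whether it is a promoter used in these samples was not tested, and no other Acaca start was searched. The counts of Acaca had r = 0.84 with Fasn and 0.55 with Srebf1 in the Apc table. In the third table Acly had r = 0.53 with Fasn and 0.43 with Srebf1. No E-box and no sterol element in these letters lies in any window of the 8 genes, which says nothing of how the factors bind elsewhere.

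Levels per kilobase of exon differed widely among the 10 genes. Values are CPM, scaled between libraries with TMM and divided by exon length from the GENCODE M21 annotation, which is of an earlier build than the files. In the Apc table Scd2 had the highest median at 123 CPM per kb, before Fads2 at 69.2, Acly at 51.1 and Scd1 at 25.2 CPM per kb. Elovl6 at 14.0, Fasn at 13.6 and Srebf1 at 9.59 CPM per kb followed, and Me1 at 4.66, Acaca at 3.26 and Pnpla3 at 0.442 CPM per kb came last. Over single libraries every neighbouring pair of genes in this order overlapped in the Apc table, and Scd1 had the highest value, in a range of 10.3 to 276 CPM per kb. In the third table, with the narrowest ranges, Scd2 at 51.2 to 90.4 CPM per kb stood clear of Fads2 at 23.1 to 41.9. Pnpla3, at most 0.641 CPM per kb there, stood clear of Acaca, at least 2.49 CPM per kb. Some counts are less certain than others because identical stretches can draw reads away. Of the 50-base windows of the exons, 22.9% are shared with 2 other genes (Gm7049 and Gm7329) for Me1 and 30.4% with many genes for Acaca. Scd1 and Scd2 share 4.56% and 3.97% of theirs, mostly within the Scd family, and Fads2 shares 0.152%.

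**Figure D1:**
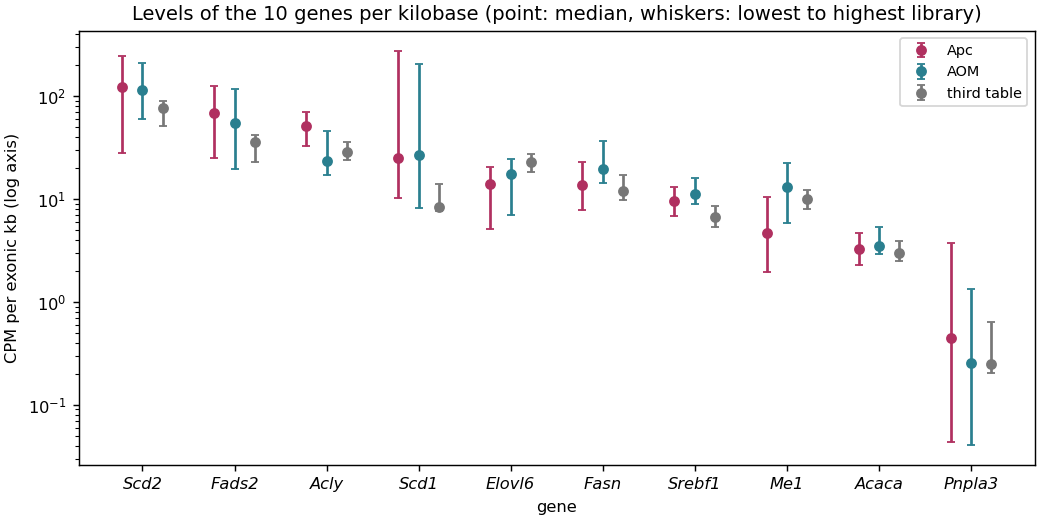
CPM per exonic kilobase (log axis) for each gene in the Apc (n = 18), AOM (n = 11) and the third (n = 8) table, with the median as a point and the lowest and highest library as whiskers. Scd1 and Pnpla3 span the widest ranges in the Apc and AOM tables, and Pnpla3 has the lowest median in all 3.

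No member passed an adjusted p of 0.05 in any of the 17 comparisons made with edgeR's quasi-likelihood test. The background was low as well by edgeR: 0.0139% of 21624 genes passed for black rice against control diet in the Apc table, 0% in F and 0.0324% in M. It was higher by DESeq2, which called no member in these 3 comparisons and 0.992%, 1.21% and 0.742% of the genes to which it gave an adjusted p (202, 201 and 151 genes). Limma-voom called 17, 103 and 10 genes there. At an unadjusted p under 0.05, 2 members passed over both codes, Scd1 and Pnpla3, both higher (4.21% of all genes were higher and 10.3% passed in either direction). Without black rice F replicate 2 the Scd1 difference over both codes was 0.40 (unadjusted p = 0.37, edgeR adjusted p = 0.80), against 1.19 with it. In F, 1 member passed as higher and 2 as lower, where 4.51% and 5.73% of all genes did (10.2% together). In M, 3 passed, all higher, where 3.67% of all genes did (8.54% in either direction). No member passed unadjusted in Apc control diet F against WT F (4.04% of genes did), black rice against WT (8.17%) and black rice F against WT F (6.53%), nor in AOM F (3.27%) or the AOM difference by code (14%). By DESeq2, 2 members passed its adjusted threshold in the comparison of the F difference with the M difference (0.796% of genes with an adjusted p did, 132 genes), 2 in Apc F against M (2.59%, 528 genes) and 1 in AOM F against M (0.339%, 74 genes). Limma-voom called no member in any comparison.

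In the Apc table, Srebf1 values separated black rice from control diet libraries in opposite directions in F and in M, without passing the adjusted threshold by edgeR. Black rice F libraries had 54.7, 52.5 and 39.4 CPM of Srebf1, and control diet F libraries had 71.0, 69.0 and 73.0 CPM. Black rice M libraries had 55.5, 54.3 and 69.4 CPM, and control diet M libraries had 42.7, 44.8 and 39.0 CPM. So every black rice library lay below every control diet library in F and above every one in M. For this and the other groups without overlap below, the share of all genes that separate in this way was not counted. The difference was a log2 fold change of -0.54 (SE 0.16, edgeR adjusted p = 0.33) in F and 0.50 (SE 0.16, adjusted p = 0.39) in M. The F difference minus the M difference was -1.04 on the log2 scale (SE 0.22, unadjusted p = 0.00027, edgeR adjusted p = 0.19), rank 32 of 21624 genes by p. DESeq2 gave an adjusted p of 0.0057 for it, with a difference of -1.05. Averaged over both codes the log2 fold change was -0.02 (SE 0.11), since the 2 differences cancel in that mean. In bulk tissue, fewer cells of a type and less RNA per cell cannot be told apart.

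**Figure D2:**
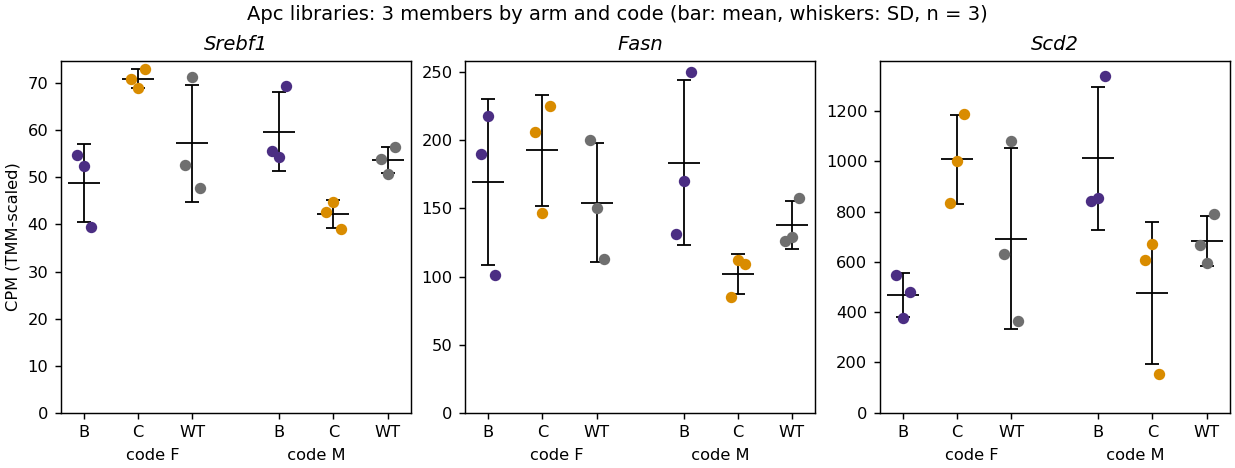
CPM of Srebf1, Fasn and Scd2 in the 18 Apc libraries by arm (B, black rice; C, control diet; WT) and code, 1 point per library with mean and SD (n = 3). For Srebf1 and Scd2 the black rice points lie below the control diet points in F and above them in M.

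Scd2, the stearoyl-CoA desaturase with the highest level per kilobase here, had the same arrangement with a larger difference. Black rice F libraries had 550, 375 and 479 CPM and control diet F libraries had 834, 1000 and 1190 CPM, without overlap. Black rice M libraries had 843, 855 and 1340 CPM and control diet M libraries had 606, 673 and 153 CPM, again without overlap. The log2 fold change was -1.11 (SE 0.45, edgeR adjusted p = 0.43) in F and 1.08 (SE 0.45, adjusted p = 0.51) in M, and the difference between them was -2.19 (SE 0.63, unadjusted p = 0.0033, adjusted p = 0.41). DESeq2 gave -2.20 for that difference, with an adjusted p that rounds to 0.05 and lay just under the threshold. Without control diet M replicate 3, whose 153 CPM is the lowest of all 18 libraries, the M difference was 0.66.

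Fasn separated the arms in M. Black rice M libraries had 131, 170 and 250 CPM and control diet M libraries had 84.8, 112 and 109 CPM, a log2 fold change of 0.85 (SE 0.29, edgeR adjusted p = 0.44) without overlap. Black rice F libraries had 190, 218 and 101 CPM and control diet F libraries had 206, 147 and 225 CPM, which overlapped (-0.19, SE 0.29). The F difference minus the M difference was -1.03 (SE 0.41, unadjusted p = 0.024, adjusted p = 0.51). With Srebf1 and Scd2, it was among 3 members at an unadjusted p under 0.05 in this comparison, all 3 lower, where 4.58% of all genes were lower and 8.89% passed in either direction.

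The enzymes that supply Fasn overlapped between the arms. Acaca averaged 61.8 ± 19.9 CPM in black rice F and 60.4 ± 8.88 CPM in control diet F, then 57.6 ± 12.7 CPM in black rice M and 44.6 ± 8.82 CPM in control diet M (SD, n = 3 each). Acly averaged 254 ± 53.7 CPM in black rice F and 312 ± 97.7 CPM in control diet F, then 263 ± 89.2 CPM in black rice M and 253 ± 79.6 CPM in control diet M. Me1 had 30.7, 19.8 and 35.1 CPM in black rice M libraries and 10.3, 10.4 and 20.0 CPM in control diet M libraries, a log2 fold change of 1.07 (SE 0.56, edgeR adjusted p = 0.62), with 1 black rice value just under the highest control diet value.

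Elovl6, which lengthens palmitate, had 105, 76.2 and 117 CPM in black rice M libraries and 33.0, 50.4 and 105 CPM in control diet M libraries (log2 fold change 0.66, SE 0.54, adjusted p = 0.76). Fads2, the delta-6 desaturase of polyunsaturated fatty acids, was the 1 member lower in M, at -0.26 (SE 0.54). Over all 10 members the median log2 fold change in M was 0.65, with 9 of 10 higher, beside a median of -0.01 over all genes tested. In F it was -0.03, with 5 of 10 higher, beside 0.01 over all genes.

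Cholesterol genes, driven by SREBP2, had the same arrangement. Of 20 cholesterol synthesis and uptake genes, all 20 were lower with black rice in F (11 at an unadjusted p under 0.05, median log2 fold change -0.82) and all 20 higher in M (18 unadjusted, 1 past the adjusted threshold, median 1.43). The 1 was Lss, lanosterol synthase, at 82.4 ± 46.3 CPM in black rice M and 19.2 ± 2.07 CPM in control diet M (SD, n = 3 each; edgeR adjusted p = 0.049). Among 12 SREBP regulators and sterol sensors, 0 passed the adjusted threshold in either code by edgeR (3 lower in F, 2 higher and 1 lower in M unadjusted). Mid1ip1, which aids acetyl-CoA carboxylase, averaged 35.1 ± 4.85 CPM in black rice F and 58.6 ± 9.55 CPM in control diet F (SD, n = 3 each, as for the genes that follow). Srebf2, which encodes SREBP2, averaged 111 ± 14.1 CPM in black rice F and 153 ± 17.4 CPM in control diet F. Insig1, which retains SCAP in the endoplasmic reticulum, averaged 117 ± 55.3 CPM in black rice M and 54.6 ± 29.5 CPM in control diet M. Nr1h3, which encodes LXR alpha, averaged 13.8 ± 1.07 CPM in black rice M and 27.6 ± 5.27 CPM in control diet M.

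None of the other lipid lists was lower throughout in F and higher throughout in M. Of 10 other fatty acid synthesis enzymes, 4 were higher and 6 lower in F and 5 and 5 in M. Aacs, which makes acetoacetyl-CoA in the cytosol, averaged 31.2 ± 6.96 CPM in black rice F and 59.6 ± 8.34 CPM in control diet F, then 69.7 ± 34.2 CPM in black rice M and 29.8 ± 6.44 CPM in control diet M. Acsl3, which activates long-chain fatty acids, ran the other way at 222 ± 38.5 CPM in black rice F and 123 ± 33.5 CPM in control diet F, then 147 ± 64.7 CPM in black rice M and 258 ± 56.7 CPM in control diet M. Of 9 genes of NADPH supply, 8 were lower in F and 7 in M, and of 7 LXR targets, 4 were higher in F and 0 in M, where Abcg5 averaged 1.32 ± 0.45 CPM in black rice and 15.3 ± 10.9 CPM in control diet. Of 12 other elongases and desaturases tested, 10 were lower in F and 5 in M, with medians of -0.21 and 0.12, in the direction of Srebf1 and Scd2. The LXR targets ran the other way, with medians of 0.17 in F and -0.57 in M. Of 9 triglyceride synthesis and storage genes tested, 5 were higher in F and 3 in M. Fads1, the delta-5 desaturase, averaged 41.0 ± 10.5 CPM in black rice M and 24.3 ± 1.98 CPM in control diet M. None of these genes passed the adjusted threshold by edgeR.

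Several marker lists also had differences in these comparisons. B and plasma cell markers had the furthest median from 0 of all lists in F, at -2.34, with 9 of 9 lower (7 at an unadjusted p under 0.05, 0 adjusted by edgeR). Their sum ran from 944 to 1980 CPM in black rice F and 5530 to 13100 CPM in control diet F, without overlap. In M 8 of 9 were lower (median -0.43, 0 unadjusted and 0 adjusted by edgeR), at 4880 to 8120 CPM in black rice and 6860 to 12000 CPM in control diet. All 10 smooth muscle markers were higher with black rice in F and in M, and their sum ran from 4360 to 6920 CPM in black rice F, 3490 to 3770 CPM in control diet F, 3770 to 6630 CPM in black rice M and 3020 to 4520 CPM in control diet M. All 10 proliferation genes were higher with black rice in M, and 9 of 10 were lower in F. All 10 hepatocyte markers were lower with black rice in M, where their sum ran from 57.3 to 87.9 CPM in black rice and 75.3 to 181 CPM in control diet. With the mean of the smooth muscle markers as a covariate the F difference minus the M difference of Srebf1 was -1.05, and with distal colon Hox genes it was -1.03, both close to the value without. Over the 18 Apc libraries Srebf1 correlated with the mean of the cholesterol genes at r = 0.74 and with that of the proliferation genes at r = 0.74, and Scd2 at 0.76 and 0.54 (Pearson, log2 CPM). With the cholesterol genes Srebf1 had r = 0.59 in the AOM and 0.52 in the third table, and Scd2 0.65 and 0.72. With the proliferation genes Srebf1 had 0.08 and -0.14 there, and Scd2 0.46 and -0.27. Libraries of a table share their tissue and depth range, and the part of the B and plasma cell, proliferation and hepatocyte markers in the difference was not tested.

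Against WT, control diet M libraries had the lower Srebf1. The WT libraries differ from the diet libraries in the WT label and in being labelled as receiving no treatment, and these cannot be told apart here. Control diet M had 42.7, 44.8 and 39.0 CPM and WT M had 53.8, 50.8 and 56.4 CPM, a log2 fold change of -0.35 (SE 0.16, unadjusted p = 0.042, edgeR adjusted p = 1) without overlap. Control diet F had 71.0, 69.0 and 73.0 CPM and WT F had 52.6, 71.3 and 47.7 CPM, which overlapped (0.31, SE 0.16). In M, Fasn was also lower at 84.8, 112 and 109 CPM in control diet and 126, 129 and 158 CPM in WT, and Acaca at 39.5, 39.6 and 54.8 CPM in control diet and 55.8, 55.5 and 66.9 CPM in WT, both without overlap. Over both codes no member passed at an unadjusted p under 0.05, where 4.25% of all genes passed unadjusted and 0% adjusted. In M alone 1 passed, as lower, where 1.43% of genes did (3.33% in either direction). Black rice M against WT M gave 1 member at an unadjusted p under 0.05 as higher (1.71% of all genes, 4.02% in either direction, 0.00925% adjusted), namely Me1 at 30.7, 19.8 and 35.1 CPM in black rice M and 7.45, 16.1 and 12.8 CPM in WT M. Those comparisons share the control diet M or WT M libraries and are not independent of each other.

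Scd1, the stearoyl-CoA desaturase of liver, fat and skin, varied most among the abundant members. Black rice F libraries had 317, 1350 and 62.8 CPM, control diet F libraries 235, 107 and 175 CPM and WT F libraries 722, 120 and 428 CPM. Black rice M libraries had 109, 188 and 146 CPM, control diet M libraries 96.8, 127 and 62.2 CPM and WT M libraries 50.5, 58.7 and 65.9 CPM. The F libraries hold both the highest values and the widest spread within a group. In F the log2 fold change of black rice against control diet was 1.75 (SE 0.77, edgeR adjusted p = 0.46), and without black rice F replicate 2, at 1350 CPM, it was 0.15.

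Pnpla3, a lipase and acyltransferase of lipid droplets and a known SREBP1 target in liver, was scarce and varied with Scd1. Black rice F libraries had 2.87, 5.75 and 0.408 CPM and control diet F libraries 1.62, 0.928 and 0.654 CPM. Black rice M libraries had 0.714, 1.25 and 0.532 CPM and control diet M libraries 0.129, 0.424 and 0.328 CPM, without overlap but at few reads. The log2 fold change was 1.49 in each code, with an SE of 0.90 in F and 0.95 in M. WT libraries ran from 0.0678 to 2.90 CPM. The Pearson correlation of Scd1 with Pnpla3 was 0.91 over the 18 Apc libraries, 0.87 over the 11 AOM libraries and 0.41 over the 8 of the third table.

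Both genes had higher means in F than in M libraries. Over the 3 arms of the Apc table Scd1 averaged 391 ± 415 CPM in F and 100 ± 46.7 CPM in M (SD, n = 9 each), a log2 fold change of 1.89 (SE 0.45, edgeR adjusted p = 0.12). Pnpla3 averaged 1.91 ± 1.74 CPM in F and 0.486 ± 0.377 CPM in M, at 2.0 (SE 0.54, edgeR adjusted p = 0.14). These were the 2 members at an unadjusted p under 0.05, both higher, where 6.72% of all genes were higher, 15.1% passed in either direction and 0.074% passed adjusted. DESeq2 gave adjusted p values of 0.0013 for Scd1 and 0.0094 for Pnpla3. In the AOM table Scd1 averaged 396 ± 372 CPM in 5 F libraries and 79.7 ± 46.6 CPM in 6 M libraries (log2 fold change 2.36, SE 0.56, edgeR adjusted p = 0.57). Pnpla3 averaged 1.03 ± 0.854 CPM in F and 0.297 ± 0.175 CPM in M (1.88, SE 0.72, edgeR adjusted p = 0.58). Without black rice F replicate 2 the AOM differences were 1.47 for Scd1 and 1.14 for Pnpla3. Again these 2 were the members at an unadjusted p under 0.05, where 5.6% of all genes were higher, 8.44% passed in either direction and 0.0365% passed adjusted.

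Adipocyte markers varied with both genes. All 11 were higher with black rice than with control diet in Apc F libraries (median log2 fold change 1.65, 1 at an unadjusted p under 0.05), and 9 of 11 were lower in M (median -0.71, 0 unadjusted and 0 adjusted by edgeR). All 11 were higher in F than in M in the Apc table and 10 of 11 in the AOM table, with median log2 fold changes of 1.60 and 2.63. Their sum ran from 72.6 to 1230 CPM in black rice F, 76.6 to 289 CPM in control diet F and 76.3 to 558 CPM in WT F, and from 76.7 to 201 CPM in black rice M, 137 to 324 CPM in control diet M and 50.8 to 140 CPM in WT M. Adiponectin (Adipoq), which adipocytes secrete, had 24.1, 153 and 0.76 CPM in the black rice F libraries whose Scd1 was 317, 1350 and 62.8 CPM, and was above 0 in all libraries. At most 3 of the 11 markers were at 0 in a library, in WT M replicates 1 and 2. Scd1 correlated with the mean of the adipocyte markers at r = 0.88 in the Apc, 0.85 in the AOM and 0.78 in the third table, and Pnpla3 at 0.87, 0.87 and 0.77 (log2 CPM). In the same 3 tables Me1 had 0.58, 0.59 and 0.16, Acaca 0.34, 0.71 and -0.09, Elovl6 0.42, 0.37 and -0.16, and Fasn 0.31, 0.44 and -0.21. Srebf1 had -0.05, -0.16 and -0.08, Scd2 -0.25, -0.33 and 0.11, Acly -0.43, 0.10 and -0.16, and Fads2 -0.48, -0.01 and -0.09.

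**Figure D3:**
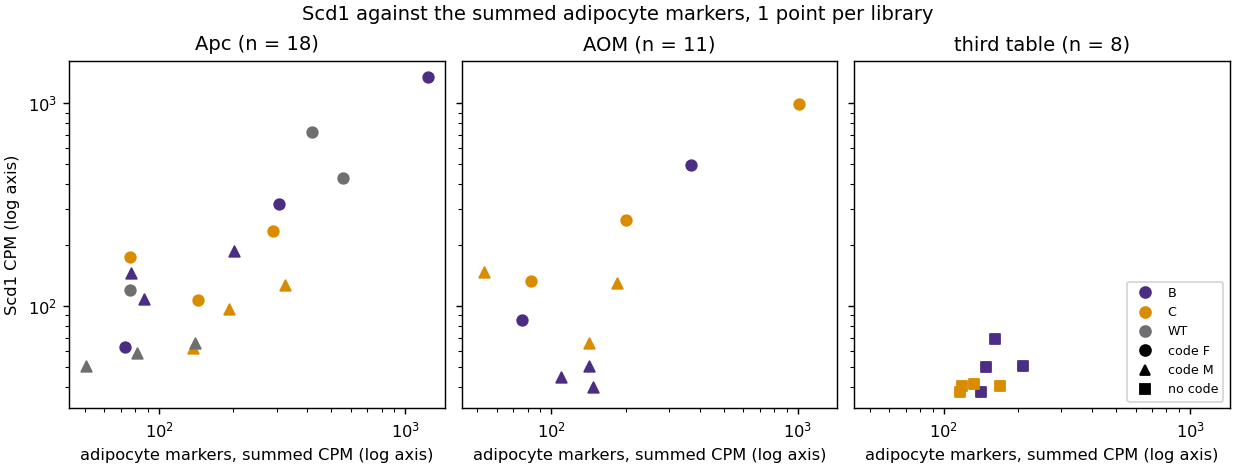
Scd1 CPM against the summed CPM of 11 adipocyte markers, both on log axes, 1 point per library, coloured by arm and shaped by code, for the Apc, the AOM and the third table. The library with the highest sum in the Apc and AOM tables also has the highest Scd1 (1350 and 997 CPM), and both are F libraries.

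With the mean of the adipocyte markers as a covariate, the F against M difference of Scd1 was 0.63 in the Apc table and 1.12 in the AOM table, and that of Pnpla3 was 0.70 and 0.55. The difference of Scd1 between black rice and control diet in Apc F libraries was 0.48 with it, against 1.75 without. Over both codes that of Scd1 was 0.71 (unadjusted p = 0.056) with it and 1.19 (0.042) without, and that of Pnpla3 was 1.10 (unadjusted p = 0.0037, edgeR adjusted p = 0.31) with it and 1.49 (unadjusted p = 0.037) without. The differences of Srebf1 and Scd2 by diet and code were -1.05 and -2.10 with it, against -1.04 and -2.19 without. The difference of Me1 between black rice M and WT M was 0.85 with it and 1.24 without. That of Fasn between black rice and control diet in Apc M was 0.91 with it and 0.85 without. Whether fat tissue in the dissected samples gave the Scd1 and Pnpla3 counts was not tested.

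The 10 genes did not vary as a block. Fasn was closest to the rest in the Apc table, with r = 0.85 to the mean of the 9 others, and it paired with Acaca at 0.84 and Srebf1 at 0.73. Elovl6 paired with Me1 at 0.87 in the Apc and 0.83 in the AOM table, and Acly with Fads2 at 0.85 and 0.84. In the third table neither pair was seen, at -0.27 for Elovl6 and Me1 and -0.44 for Acly and Fads2. In the Apc table the 2 pairs ran against each other: Elovl6 and Fads2 had r = -0.77, Me1 and Fads2 -0.72, Acly and Me1 -0.61 and Acly and Elovl6 -0.54 over the 18 libraries. In the AOM table the same 4 values were -0.64, -0.49, -0.64 and -0.72 over 11 libraries. The third table had -0.56 for Elovl6 and Fads2, 0.03 for Me1 and Fads2, -0.85 for Acly and Me1 and 0.42 for Acly and Elovl6 over 8 libraries.

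In the Apc and AOM tables the 2 pairs varied with Hox genes that mark the distal colon. The sum of Hoxa13, Hoxb13, Hoxd10, Hoxd11, Hoxd12 and Hoxd13, a list chosen after the values were seen, ran from 17.1 to 445 CPM in the Apc table and from 7.5 to 352 CPM in the 11 AOM libraries. Fads2 correlated with their mean at r = 0.76 in the Apc and 0.87 in the AOM table, Acly at 0.51 and 0.91, Elovl6 at -0.74 and -0.66, and Me1 at -0.46 and -0.40. In the third table Fads2 had 0.56 and Elovl6 -0.53, while Acly at -0.39 and Me1 at 0.20 had the opposite sign. With the mean of the epithelial markers Elovl6 had r = 0.61 in the Apc and 0.88 in the AOM table, and Fads2 -0.44 and -0.83. In control diet F replicate 1, with the lowest Hox sum of the Apc table, Fads2 had 97.1 CPM and Elovl6 131 CPM, and in black rice F replicate 3, with the highest, Fads2 had 318 CPM and Elovl6 35.0 CPM. Libraries of 1 group lay far apart on this axis, for example 427, 400 and 18.2 CPM of Hox genes in control diet M, against 214, 207 and 199 CPM in black rice M. Other members varied with the Hox mean as well, so this was not particular to the 2 pairs. In the Apc and AOM tables Acaca had r = -0.47 and 0.34, Fasn -0.30 and 0.57, and Scd1 0.02 and 0.69. Scd2 had 0.22 and 0.63, Pnpla3 -0.15 and 0.45, and Srebf1 -0.16 and 0.34.

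**Figure D4:**
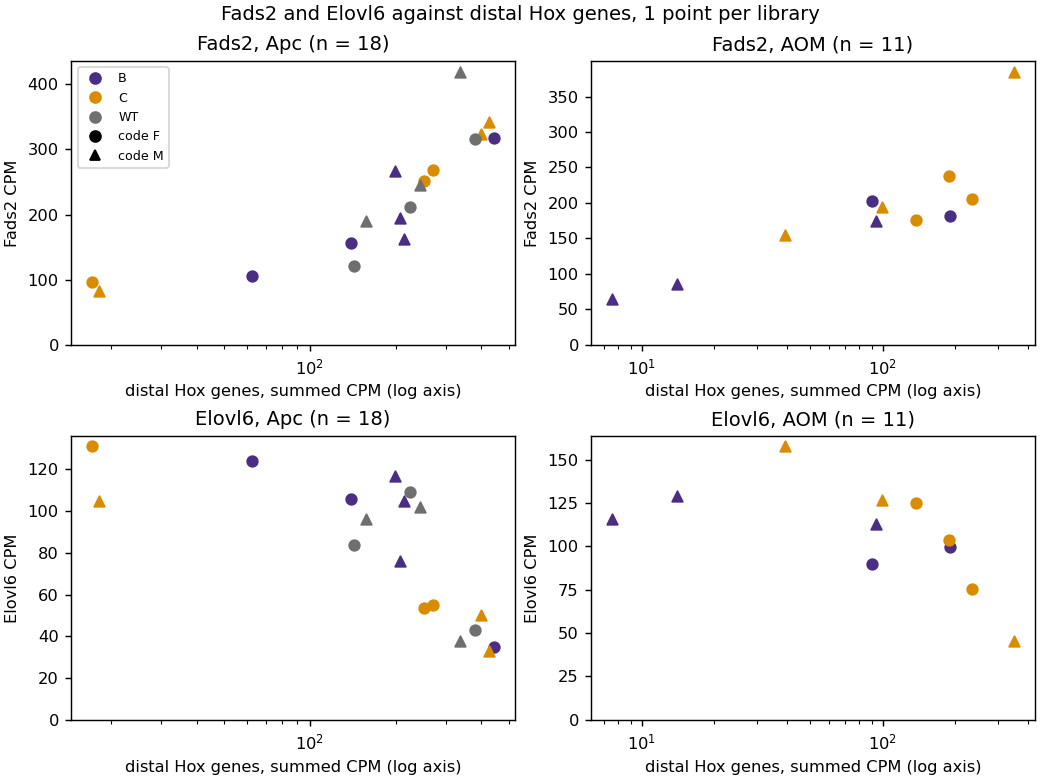
CPM of Fads2 (top) and Elovl6 (bottom) against the summed CPM of 6 distal Hox genes (log axis) in the Apc and AOM libraries, 1 point per library. Fads2 runs upward and Elovl6 downward with the Hox sum in both tables, with libraries of all arms and both codes along the axis.

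In the AOM table, 8 of the 10 members were lower with black rice than with control diet over both codes, with a median log2 fold change of -0.23 beside -0.02 over all genes, and 0 passed at an unadjusted p under 0.05 (3.06% of 21895 genes unadjusted, 0% adjusted by edgeR). Srebf1 had 62.3 and 51.6 CPM in black rice F libraries and 50.2, 65.5 and 62.7 CPM in control diet F libraries. It had 51.4, 65.7 and 69.0 CPM in black rice M libraries and 62.7, 58.8 and 89.4 CPM in control diet M libraries. The arms overlapped in both codes. The F difference minus the M difference of Srebf1 was 0.12 (SE 0.31) and that of Scd2 was 0.64 (SE 0.51), so the opposite directions of the Apc table were not seen here. Whether the 2 tables differ was not tested, since they were fitted apart. All 9 B and plasma cell markers were lower with black rice over both codes here (6 at an unadjusted p under 0.05, 0 adjusted by edgeR), and their part in these values was not tested.

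Among the diet comparisons of the AOM table Fads2 was the 1 member at an unadjusted p under 0.05, and in M alone (8.37% of all genes lower, 13.8% in either direction, 0% adjusted). Black rice M libraries had 64.9, 86.1 and 175 CPM and control diet M libraries had 155, 194 and 384 CPM, a log2 fold change of -1.17 (SE 0.41, edgeR adjusted p = 0.33). Their Hox sums were 7.5, 14.0 and 94.2 CPM in black rice M and 39.5, 99.8 and 352 CPM in control diet M. With the Hox mean as a covariate the Fads2 difference was -0.25 (edgeR unadjusted p = 0.52). The Hox list was chosen after the values were seen, and its sums ran lower with black rice, so diet and Hox level cannot be told apart here. Without control diet M replicate 3, at 384 CPM, the Fads2 difference was -0.66. Scd1 had 40.0, 50.8 and 44.5 CPM in black rice M libraries and 130, 65.8 and 147 CPM in control diet M libraries, without overlap (-1.34, SE 0.74, edgeR adjusted p = 0.42).

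**Figure D5:**
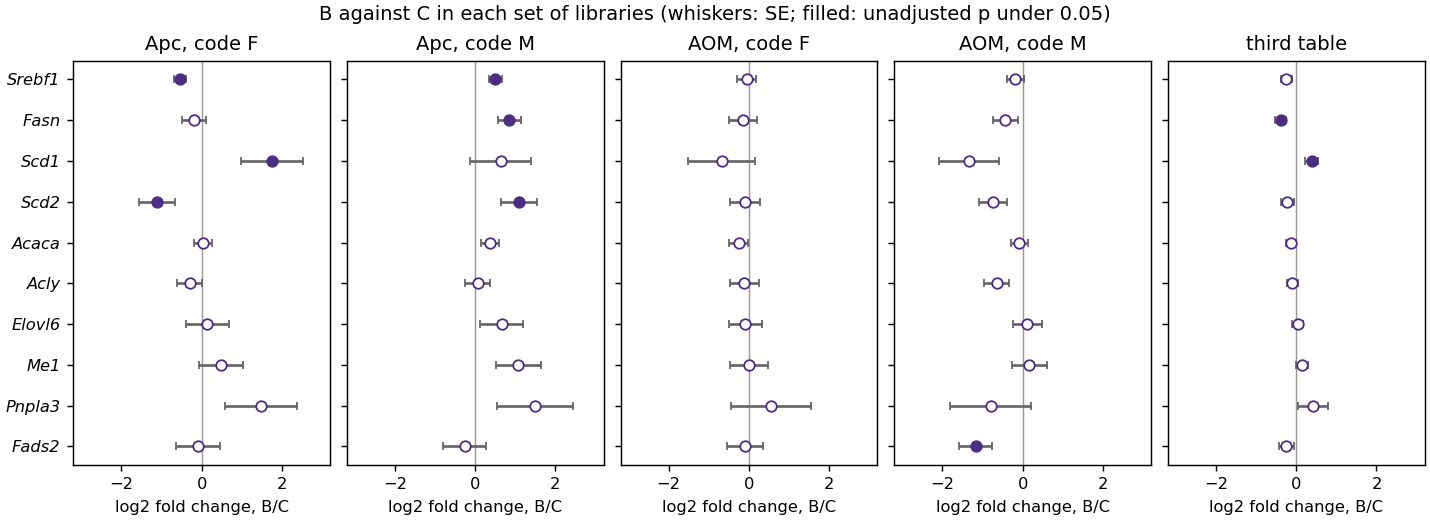
Log2 fold change of black rice over control diet for each of the 10 genes, with its SE, in Apc F, Apc M, AOM F, AOM M and the third table; filled points have an unadjusted p under 0.05. Srebf1 and Scd2 lie left of 0 in Apc F and right of 0 in Apc M, and the third table has the shortest error bars.

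The third table gave the smallest errors and small differences. Fasn had 133, 119, 107 and 131 CPM in black rice libraries and 122, 187, 159 and 174 CPM in control diet libraries, a log2 fold change of -0.39 (SE 0.14, edgeR adjusted p = 0.59). Scd1 had 50.2, 68.9, 37.7 and 50.6 CPM in black rice libraries and 37.7, 40.6, 41.4 and 40.2 CPM in control diet libraries (0.38, SE 0.16, edgeR adjusted p = 0.62), or 0.21 without black rice replicate 2 at 68.9 CPM. These were the 2 members at an unadjusted p under 0.05, 1 in each direction, where 4.12% of 20831 genes were higher, 3.81% lower (7.94% together) and 0% passed adjusted. Srebf1 had 33.4, 38.2, 30.5 and 38.4 CPM in black rice libraries and 37.2, 44.2, 36.5 and 48.8 CPM in control diet libraries, which overlapped (-0.25, SE 0.13). Of the 20 cholesterol genes, 17 were lower with black rice here, 6 at an unadjusted p under 0.05, and Srebf2 averaged 159 ± 7.96 CPM in black rice and 196 ± 11.9 CPM in control diet (SD, n = 4 each; log2 fold change -0.31, edgeR adjusted p = 0.52). Of 11 adipocyte markers, 9 were higher with black rice, with Adipoq at 2.95 ± 1.44 CPM in black rice and 1.15 ± 0.407 CPM in control diet. With the adipocyte mean as a covariate the Scd1 difference was 0.12 and the Fasn difference -0.62.

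The genes whose levels were most like the mean of the 10 members over the 18 Apc libraries were Gng2 (Pearson r = 0.86), Ccn4 (0.85), Spg20, Slco3a1 and Arhgap23 (0.78 each), out of 14647 genes. In the AOM table the same genes had r of 0.15, 0.30, 0.24, 0.07 and 0.60, and in the third table values between -0.40 and 0.03.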

How the data were processed

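Per the labels' protocols, RNA was extracted with Trizol, captured with oligo(dT) and sequenced on the DNBSEQ platform. The submitters' processing notes name fastp, HISAT2, SAMtools, featureCounts and GRCm39, with no role or order. The authors deposited raw read counts per gene in 3 tables; per the file headers, 2 were made with featureCounts 2.0.1 and Ensembl 104, read pairs counted by exon with no strand option, so sense and antisense reads cannot be told apart. The members, lists and tests were chosen with earlier results of these data known, and the distal Hox list and its covariate after the values were seen. Named genes are the 10 members, and from each list up to 4 past the threshold or else the 2 smallest p, and the 5 genes most like the members. Each table was fitted alone with edgeR 4.0.16 (R 4.3.3; TMM, filterByExpr by group, glmQLFTest, two-sided, Benjamini-Hochberg over all genes) and tested on simulated data. Each SE is the absolute log2 fold change divided by the square root of the F of glmQLFTest, so it is approximate. CPM use TMM library sizes. Correlations use log2 CPM. Alternatives were DESeq2 1.42.0, limma-voom 3.58.1, RLE size factors, no filter, covariates, a replicate block, only the compared groups, and leaving out each replicate. No 2 libraries held identical counts, and 0 columns were left unmapped. Replicate numbers were not taken to pair samples.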

Additional observations from a re-analysis of the deposited data

Results flagged for a closer look

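Srebf1 and Scd2 had opposite differences between black rice and control diet in the F and M libraries of the Apc table, with every library on its group's side. The share of all genes that separate in this way was not counted. The log2 fold changes were -0.54 in F and 0.50 in M for Srebf1, and -1.11 in F and 1.08 in M for Scd2. The difference between codes was tested and did not pass in edgeR (adjusted p = 0.19 for Srebf1 and 0.41 for Scd2). DESeq2 gave 0.0057 for Srebf1 and a value that rounds to 0.05, just under the threshold, for Scd2.

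TMM-scaled CPM on the scale of the 12 AOM libraries together were also taken for black rice F replicate 3, the library left out above. It was higher than any of the 11 other AOM libraries for 8 of the 10 members. Scd1 had 6010 CPM there (highest other library 945), Fasn 978 (378), Fads2 560 (358) and Elovl6 293 (147). Acaca had 249 CPM (86.8), Me1 221 (82.0), Srebf1 161 (83.1) and Pnpla3 10.6 (1.96). Scd2 had 40.3 CPM there, under the lowest other library at 312 CPM. This library held only 5373366 counted reads, and its CPM depend on the TMM scaling. Of these reads 1639 were of Fads2 and 470 of Srebf1. Control diet M replicate 3 held 20640 and 4799 of 46591592 reads, a larger share for both, so without the scaling the left-out library is not highest for these genes.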

How the results depend on the processing

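Among 17 counts of members past the adjusted threshold, each 0 by edgeR, 4 of 307 alternative values were above 0. DESeq2 gave 2 for the Apc diet difference by code, 2 for Apc F against M and 1 for AOM F against M, where it called 132, 528 and 74 genes in all against 0, 16 and 8 by edgeR, and leaving out 1 replicate gave 0 to 1 for Apc F against M (1 without black rice F replicate 3, where Scd1 had an adjusted p of 0.046). The 20 member differences at an unadjusted p under 0.05 kept their sign in all 365 alternative values, while the 150 others changed sign in 297 of 2705. The 20 were picked by their p in the main fit of the same libraries, so their steady sign is no independent support. With a replicate block every count stayed at 0, and Srebf1 by diet and code was -1.05 (adjusted p = 0.30). Same-numbered Apc libraries had correlations of -0.62 to 0.54 in their deviations from group means (median -0.07, against 0.03 for other numbers). In the AOM table these ran from -0.35 to 0.40 (0.14 against -0.04), and in the third from -0.69 to 0.57 (-0.43 against 0.08). The numbers were not taken as pairs. With the block, AOM Fads2 in M was -1.18 (edgeR unadjusted p = 0.001, adjusted p = 0.14) and AOM Pnpla3 in F against M 1.45 (unadjusted p = 0.09). With all 12 AOM libraries, Srebf1 in black rice against control diet was 0.29 and Scd1 0.55, against -0.12 and -1.01 without the library holding liver transcripts. Groups of 3 limit what can pass.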
